A study of Mus musculus with 4 samples.

Results

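The 168 probes described here carry a CT step, a C followed by a T, in the middle of 4 varied bases, with a purine on either side of it. The rule used probe names and no measured value, and it was set with earlier results of these data known. In 21 libraries of designed DNA probes each name ends in 4 bases, and all 256 combinations of those bases are present in each library. A probe was kept where the ending held CT between purines, as in ACTA or GCTG, or where it held AG between pyrimidines, as in TAGT or CAGC, which is the same arrangement read on the opposite strand. The flanks give 4 contexts, with A or G before and after CT. This gives 8 endings per library, 84 probes with CT on the listed strand and 84 with CT on the opposite strand, out of 6126 library names in all. The 168 sequences are all distinct, and 40 of them are also printed under another name.

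UV-Bind arrays measure how much of a labelled antibody binds DNA spots printed on glass. In the series, mouse antibodies against cyclobutane pyrimidine dimers (CPD, diluted 1 in 400) and against 6-4 photoproducts (6-4PP, diluted 1 in 80) were each applied to 1 UV-irradiated and 1 non-irradiated array, so 4 arrays were available with 1 array per group. The titles of both 6-4PP arrays say the opposite of their array condition field, and the condition field was used for grouping. Neither the labels nor the file headers state the UV dose or how the second strand was made.

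UV light joins neighbouring pyrimidines on one strand into photoproducts. In a CPD the paired bases are linked by a ring of carbon atoms, and in a 6-4PP by a single bond. Any of the 4 dipyrimidine steps, TT, TC, CT and CC, can in principle carry either product, and TT is best known for CPD and TC for 6-4PP. The backbones take their names from MITF, the regulator of pigment cells, TBP, the factor that binds the TATA box, and p53, the tumour suppressor, all of them proteins that bind DNA.

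The first set of sequences shows the CT step alone. In MITF_Ex_sebox_59 the backbone alternates purine and pyrimidine, so the central CT is the only place outside the shared 3′ end where neighbouring pyrimidines meet on either strand. Capitals mark both bases of every dipyrimidine step outside the last 10 bases, which all probes share. Those 10 bases alternate purine and pyrimidine, so no step lies within them. These 4 probes differ only in the purines next to CT, at positions 17 and 20:
MITF_Ex_sebox_59_ACTA: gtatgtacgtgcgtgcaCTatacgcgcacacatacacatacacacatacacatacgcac
MITF_Ex_sebox_59_ACTG: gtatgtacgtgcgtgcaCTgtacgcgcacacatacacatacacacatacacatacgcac
MITF_Ex_sebox_59_GCTA: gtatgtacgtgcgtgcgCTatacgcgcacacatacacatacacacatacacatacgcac
MITF_Ex_sebox_59_GCTG: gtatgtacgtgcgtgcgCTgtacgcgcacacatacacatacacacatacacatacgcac

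The next 3 probes keep the backbone and the flanks of the first and change the step to TC, TT or CC, and show what the comparison between step types rests on:
MITF_Ex_sebox_59_ATCA: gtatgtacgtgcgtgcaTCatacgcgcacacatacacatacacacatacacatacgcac
MITF_Ex_sebox_59_ATTA: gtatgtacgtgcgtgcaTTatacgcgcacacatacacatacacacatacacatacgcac
MITF_Ex_sebox_59_ACCA: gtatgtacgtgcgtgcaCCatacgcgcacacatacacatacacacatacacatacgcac

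The following probes show how the same 4 bases acquire further steps from the backbone. On the listed strand, capital AG, GA, AA or GG reads CT, TC, TT or CC on the opposite strand. MITF_sebox_59_ACTG has a step at both edges of the varied bases and its reverse complement ending in the same library has none. TBP_E59 has the reverse arrangement. In p53_E_mut_60 both orientations have 1 edge step of type TC, preceded by A in the first and by G in the second:
MITF_sebox_59_ACTG: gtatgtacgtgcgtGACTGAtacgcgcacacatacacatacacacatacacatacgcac
MITF_sebox_59_CAGT: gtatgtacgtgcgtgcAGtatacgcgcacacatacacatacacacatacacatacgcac
TBP_E59_TAGT: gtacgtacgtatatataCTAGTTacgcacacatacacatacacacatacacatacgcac
TBP_E59_ACTA: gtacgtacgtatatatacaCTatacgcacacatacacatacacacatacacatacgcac
p53_E_mut_60_ACTG: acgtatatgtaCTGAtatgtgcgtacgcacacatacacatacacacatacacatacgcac
p53_E_mut_60_CAGT: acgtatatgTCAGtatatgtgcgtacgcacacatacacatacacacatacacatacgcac

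The edge steps arose where an outer purine of the varied bases met a purine of the backbone, so they always lay on the strand opposite to the central CT. A CT with no other step, called a lone CT below, was found in 32 probes. A further 104 probes had 1 edge step and 32 had 2. All probes with 0 or 2 edge steps belonged to the 8 libraries of 59 bases, and all probes with 1 to the 13 libraries of 60 bases. A lone CT lay on the listed strand in MITF_Ex_ebox_59, MITF_Ex_sebox_59, TBP_E59 and TBP_MUT_E59, and on the opposite strand in MITF_ebox_59, MITF_sebox_59, TBP_59 and TBP_MUT_59. The varied bases began at position 10 in the p53_60 and p53_mut_60 libraries and ended at position 22 in the TBP_E ones.

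Each name had 10 replicate spots per array. Levels below are intensities in the scanner's units, as the median over a name's spots, and a group of probes is given by the median over its names. Spots the authors had flagged were left out, which left at least 8 spots for every CT probe on all 4 arrays. No CT probe's median reached the scanner ceiling of 65535, and 3 of its 1680 spots on the irradiated 6-4PP array did. The median SD of a CT probe's spots, on the log2 scale, was 0.20 and 0.62 on the non-irradiated and irradiated CPD arrays and 0.15 and 0.36 on the 6-4PP arrays. The irradiated CPD array was therefore the noisiest, and its local median intensity ranged from 1111 to 8004 across the slide. Probes were compared by an exact two-sided permutation test on the mean log2 intensity of their spots, with Benjamini-Hochberg adjustment over all 9912 pairs of the 21 libraries on that array, and called at an adjusted p below 0.05. These tests compare spots of 1 array. With 1 array per group, no test between irradiated and non-irradiated arrays was possible.

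On the non-irradiated arrays the CT probes were dim. The lowest, median and highest intensities were 25, 29.5 and 46.5 with the anti-CPD antibody and 34.5, 56.5 and 78 with the anti-6-4PP antibody. On the irradiated arrays they were 1257.5, 3292.25 and 9162 for CPD and 3456.5, 7785.25 and 48323.5 for 6-4PP. The irradiated and non-irradiated ranges did not overlap for either antibody. The CT probes differed by a median of 6.76 log2 units for CPD, ranging from 5.44 to 8.03, and 7.26 for 6-4PP, ranging from 5.83 to 9.51. All 168 were more than 2-fold brighter on the irradiated array, as were 100.0% of all library names with each antibody.

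That difference was shared by probes without any dipyrimidine step outside the common 3′ end, which itself holds none. There were 214 such names, all of 60 bases, and their median difference was 6.38 for CPD and 6.51 for 6-4PP. Their irradiated medians were 2336.5 and 4825.25, which serve as the background of each array. The lone CT probes lay close to this background. Their median differences were 6.57 and 6.48, and their irradiated medians 2662.75 for CPD and 5373.25 for 6-4PP. For all library names the medians were 4193.25 and 15228.

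A level above the 95th percentile of the background probes, 3728.475 on the irradiated CPD array, was reached by 59 of the 168 CT probes, beside 57.5% of all library names. On the irradiated 6-4PP array, where that percentile was 6738.225, it was reached by 99, beside 87.7% of all library names. Among lone CT probes only 1 of 32 for CPD, MITF_Ex_sebox_59_ACTA, and 4 of 32 for 6-4PP passed it, and all 4 of the latter were in the ACTA context. Without irradiation 55 of the 168 CT probes passed the same percentile for CPD, beside 35.4% of all library names, and 38 for 6-4PP, beside 24.1%. After irradiation, with 1 edge step the counts were 37 and 68 of 104, and with 2 edge steps 21 and 27 of 32. Most lone CT probes thus had a level within the range of probes that hold no dipyrimidine step in the compared region. The lone CT probes have 59 bases and the background probes 60, so the 2 sets also differ in length and backbone.

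Within their own library of 256 endings, the CT probes ranked low. Counting from 1 for the dimmest, their median rank was 92.5 on the irradiated CPD array and 47 on the irradiated 6-4PP array. All 32 lone CT probes were among the lowest 64 of their library for 6-4PP, with a median rank of 12.5. For CPD 19 of the 32 were, with a median rank of 57.5. On the non-irradiated arrays the median rank of all CT probes was 127.75 for CPD and 132 for 6-4PP, close to the middle of a library. The 32 lone CT probes ranked lower than that without irradiation too, with a median rank of 60 for CPD and 17 of 32 among the lowest 64, and of 79.5 for 6-4PP and 12 of 32. The CPD rank of lone CT probes was thus about as low before irradiation as after it.

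Levels were higher in probes with more edge steps. With 0, 1 and 2 edge steps the median was 2662.75, 3303 and 5245 for CPD and 5373.25, 8723 and 11664 for 6-4PP. Between 0 and 2 both sets came from the same 8 libraries, whereas the set with 1 differs in probe length as well. The set with 2 edge steps was also brighter before irradiation. There 20 of 32 were above the 95th percentile of the background probes for CPD, against 7 of 32 lone CT probes, and 15 of 32 for 6-4PP, against 8 of 32.

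The type of the edge step separated the probes differently for each antibody. Among probes with 1 edge step, those with TT had the highest median for CPD, 6150 over 16 probes. The medians were 3704.75 over 36 probes with TC, 3288 over 16 with CT and 2162 over 36 with CC. For 6-4PP the order was TC at 9987.75, TT at 9467.75, CC at 6224.75 and CT at 6066.5. Probes with a second CT thus had the lowest 6-4PP median of the 4 types, close to that of probes with CC. Those with CC had the lowest CPD median. These are descriptions over probes of different backbones, with no test.

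The base before the edge step also went with the 6-4PP level. For TC at the 3′ edge of the CT strand, the median was 24135.75 over 6 probes in which A preceded it, read as ATCA on the strand that holds the step, and these ran from 21109 to 28620.5. It was 9947 over 6 probes in which G preceded it, GTCA, from 7457.5 to 11536, and the ranges did not overlap. The 20 probes with GTCA at the 5′ edge had a median of 9943. For TT the medians were 15874 after A and 9018.75 after G, for CC 10161 and 6374.5, and for CT 7582.25 and 4759. Each type was thus brighter after A. That base belongs to the backbone, so it cannot be told apart from other differences of backbone and strand. For CC and CT, the probes after A were in TBP_E60 and TBP_MUT_E60. Those after G were in MITF_Ex_ebox_60 and MITF_Ex_sebox_60. For CPD the same groups lay closer: TC gave 4122.25 after A and 3697.5 after G, and TT gave 6337.25 after A and 7446.25 after G.

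The 3 brightest CT probes for each antibody carried 2 edge steps. On the irradiated 6-4PP array the highest CT probe was MITF_sebox_59_ACTG at 48323.5 ± 11684 (SD, n = 10 spots), with 6 bases reading GACTGA, followed by MITF_ebox_59_ACTG at 39687 and MITF_sebox_59_GCTG at 30729. The lowest were TBP_E59_GCTG at 3456.5 ± 3327 (SD, n = 10 spots), MITF_Ex_ebox_60_TAGC at 3533 and TBP_60_GCTG at 3668 over 9 spots. TBP_E59_GCTG, a lone CT, is printed here beside the brightest:
TBP_E59_GCTG: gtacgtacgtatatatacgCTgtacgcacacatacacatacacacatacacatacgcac

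On the irradiated CPD array the highest were TBP_E59_TAGT at 9162 ± 1930 (SD, n = 10 spots), MITF_sebox_59_ACTA at 8687 and TBP_MUT_E59_TAGT at 8523. Each of these 3 carries a TT step at an edge. The lowest were TBP_MUT_E60_CAGC at 1257.5 ± 954 (SD, n = 10 spots), MITF_Ex_ebox_60_CAGT at 1465.5 and TBP_60_TAGC at 1521.5, each with an edge CC. The lowest CPD probe has CC on the listed strand just before the AG that reads CT on the other:
TBP_MUT_E60_CAGC: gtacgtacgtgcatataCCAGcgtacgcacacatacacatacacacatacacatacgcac
Its 6-4PP level was 10113, above the median of the CT probes. Over the 168 probes the Spearman correlation between the irradiated CPD and 6-4PP levels was 0.66, and over the 32 lone CT probes 0.45. The points share backbones and edge steps, so this is a description.

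The purine before CT was compared first. Over the 42 probes of each context, the irradiated 6-4PP medians were 9639.75 for ACTA, 9919.75 for ACTG, 6104.5 for GCTA and 6526.5 for GCTG. The CPD medians were 4336.75, 3564, 3027.25 and 2633.25. Contexts with A before CT were therefore brighter for both antibodies. Paired within libraries, A was higher than G on the irradiated 6-4PP array in 80 of 84 pairs, with a median difference of 0.52 on the log2 scale, ranging from -0.28 to 1.29. Of these, 53 were called with A higher and 0 with G higher, beside 51.9% and 13.2% of all pairs of endings that differ in the same way. On the irradiated CPD array A was higher in 69 of 84 pairs, with a median of 0.42 and a range from -1.16 to 1.79. There 24 were called with A higher and 0 with G higher, beside 37.9% and 0.223% of all such pairs, so the share of CT pairs called for CPD was no larger than the background. With the authors' spatially adjusted intensities 48 of the 84 CPD pairs were called with A higher and 0 with G higher, beside 67.3% and 0.372% of all such pairs, which again is no larger a share than the background.

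Part of this comparison changes the edge step too. Where the outer base meets a backbone purine, A in place of G turns an edge CC into TC, or an edge CT into TT. In 44 pairs the step changed in this way. The median difference was 0.71 for 6-4PP, with 40 called, and 0.72 for CPD, with 20 called. Over all pairs of endings with this exchange, whatever their steps, 51.9% and 37.9% were called with A higher. Pairs with equal step types were called less often, in 33.4% and 9.84%. The share over all step-changing pairs was therefore above 51.9% for 6-4PP and above 37.9% for CPD. It was not computed, so the CT counts are not read as exceeding it. The largest called CPD difference was in a pair whose edge step changed. MITF_Ex_ebox_59_CAGT had 5903.5 and MITF_Ex_ebox_59_CAGC 1706.5, a difference in mean log2 intensity of 1.48 ± 0.26 (SE over spots; exact permutation test, adjusted p = 0.00112). So was the largest for 6-4PP, MITF_Ex_sebox_59_TAGT at 9782 against MITF_Ex_sebox_59_TAGC at 4006, with a difference of 1.29 ± 0.24 (exact permutation test, adjusted p = 0.000139).

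In the other 40 pairs both probes held the same step types, and the differences were smaller. The 6-4PP median was 0.26 and 13 were called with A higher and 0 with G higher, beside 33.4% and 0.625% of all pairs with equal step types. The CPD median was 0.20 and 4 were called with A higher, beside 9.84% of all such pairs. The CPD count was 8 with A higher and 0 with G higher with adjusted intensities, beside 24.7% and 1.41% of all such pairs. For both antibodies these counts were near the background share.

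Lone CT probes show the flank without any edge step. Over 8 libraries the 6-4PP medians were 6542.5 for ACTA, from 5233 to 7567.5, and 4793.25 for GCTA, from 4249 to 5624. The ACTG median was 5639.5 and the GCTG median 4916.5. A was higher than G in 15 of 16 lone pairs, with a median difference of 0.27. In 3 of them A was called higher, beside 33.4% of all pairs with equal step types. In MITF_Ex_sebox_59, ACTA had 7557 ± 2235 (SD, n = 10 spots) and GCTA 4529 ± 1671 (SD, n = 10 spots), and the ranges of spots, 5265 to 12579 and 2512 to 8690, overlapped. Their mean log2 intensities differed by 0.73 ± 0.20 (SE; exact permutation test, adjusted p = 0.00317). With G after CT, the same exchange gave 6490.5 and 5601, which were not called (adjusted p = 0.323, exact permutation test).

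For CPD the lone medians were 2949.5 for ACTA, 2637.25 for ACTG, 2520 for GCTA and 2567.75 for GCTG, a narrower spread of medians than for 6-4PP. Of the 16 lone pairs, 3 were called with A higher, in MITF_Ex_sebox_59, TBP_59 and TBP_MUT_59. Over all pairs with equal step types the share called with A higher was 9.84%. In MITF_Ex_sebox_59, ACTA had 5271 ± 1013 (SD, n = 10 spots) and GCTA 2677.5 ± 1474 (SD, n = 10 spots), a difference of 0.83 ± 0.25 (SE; exact permutation test, adjusted p = 0.0143). All 3 called pairs had A after CT.

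The purine after CT went with differences of opposite sign for CPD and 6-4PP when all pairs were taken. On the irradiated CPD array A was higher than G in 66 of 84 pairs, with a median of 0.29. In 18 pairs A was called higher and in 1 lower, beside 24.7% and 0.223% of all such pairs. With adjusted intensities 47 were called with A higher and 0 lower, beside 54.0% and 1.0%, so both counts were near their background. On the irradiated 6-4PP array A was higher in 33 of 84 pairs, with a median of -0.11. In 1 pair A was called higher and in 24 lower, beside 29.9% and 18.9% of all such pairs.

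Here too most of the calls fell in pairs whose edge step changed. In 40 pairs A in place of G turned an edge CC into CT or an edge TC into TT. Those gave a CPD median of 0.61, with 16 called higher and 0 lower. Their 6-4PP median was -0.43, with 0 called higher and 22 lower. Over all pairs with this exchange, whatever their steps, 24.7% were called higher and 0.223% lower for CPD. For 6-4PP these shares were 29.9% and 18.9%. Pairs with equal step types were called higher for CPD in 3.12% and lower for 6-4PP in 2.56%. The share over all step-changing pairs was therefore above 24.7% for the first and above 18.9% for the second. It was not computed, so the CT counts are not read as exceeding it. In the 44 pairs with equal step types the medians were 0.04 for CPD and 0.11 for 6-4PP. Only 2 of these CPD pairs were called higher and 1 lower, beside 3.12% and 0.71% of all pairs with equal step types. For 6-4PP 1 was called higher and 2 lower, beside 20.2% and 2.56%. With adjusted intensities 15 of the 44 CPD pairs were called higher and 0 lower, beside 12.1% and 3.55%. No lone pair was called for 6-4PP, and for CPD 2 were called higher and 1 lower among 16.

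The pairs with the largest called differences show the pattern. MITF_sebox_59_ACTA had a 6-4PP level of 22890.5 against 48323.5 for MITF_sebox_59_ACTG, a difference in mean log2 intensity of -1.43 ± 0.23 (SE; exact permutation test, adjusted p = 4.42e-05). Their 3′ edges read TT and TC. Of the 10 spots of MITF_sebox_59_ACTG on this array 3 were at the scanner ceiling, so each 6-4PP difference from it given here is a lower bound in size. In the other direction MITF_ebox_60_TAGC at 6217 was above MITF_ebox_60_CAGC at 5210 by 0.29 ± 0.12 (SE; exact permutation test, adjusted p = 0.026). For CPD, TBP_E60_ACTA had 3541.5 and TBP_E60_ACTG 1524, a difference of 0.87 ± 0.27 (SE; exact permutation test, adjusted p = 0.0251). The only CPD call the other way was TBP_MUT_59_TAGC at 1655 against TBP_MUT_59_CAGC at 2743, a difference of -0.67 ± 0.25 (SE; exact permutation test, adjusted p = 0.0471).

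Few flank pairs were called without irradiation. For the purine before CT, A was called higher in 4 and lower in 0 of 84 pairs for CPD, beside 9.75% and 0.372% of all such pairs, and higher in 5 and lower in 0 for 6-4PP, beside 4.87% and 0.632%. For the purine after CT, A was called higher in 2 and lower in 0 for CPD, beside 5.25% and 0.149%, and higher in 0 and lower in 1 for 6-4PP, beside 1.82% and 2.19%.

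The strand that carries CT was compared by setting each listed ending against its reverse complement ending in the same library. Over the 21 libraries the irradiated CPD medians of each listed ending and its opposite partner were 5634.5 for ACTA and 3691 for TAGT, 4167.5 for ACTG and 3152.5 for CAGT, 3311.5 for GCTA and 2707 for TAGC, and 2852 for GCTG and 2427.5 for CAGC. For 6-4PP, in the same order, they were 9553 and 9760, 9934 and 9905.5, 6107.5 and 6092, and 7065.5 and 6369. The listed strand was therefore the brighter for CPD in each context, and for 6-4PP the medians of both strands lay close.

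Over 84 pairs the median difference, listed minus opposite, was 0.33 for CPD and -0.07 for 6-4PP, but single pairs ranged from -1.73 to 2.48 and from -1.94 to 3.39. For CPD 20 pairs were called higher on the listed strand and 9 lower, beside 31.5% of all reverse complement pairs called either way. For 6-4PP 28 were called higher and 19 lower, beside 69.3%. All 9 of the CPD pairs called lower were in 59-base libraries and set a lone CT on the listed strand against a probe with 2 edge steps, and with adjusted intensities 35 CPD pairs were called higher and 11 lower, beside 54.2% of all such pairs called either way.

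The widest 6-4PP strand difference was between MITF_sebox_59 sequences printed above. MITF_sebox_59_ACTG, with an edge TC at both ends, had 48323.5 for 6-4PP, and its lowest spot, 38257, was above the highest spot of MITF_sebox_59_CAGT, 7696. That lone CT had 4618, a difference in mean log2 intensity of at least 3.33 ± 0.17 (SE; exact permutation test, adjusted p = 4.42e-05). For CPD the same probes had 6810.5 and 2648, a difference of 1.15 ± 0.32 (SE; exact permutation test, adjusted p = 0.0149). Without irradiation they had 30 and 32 for CPD. For 6-4PP they had 66.5 and 59 there, which was called in the same direction, with a difference of 0.16 (exact permutation test, adjusted p = 0.0197). TBP_E59, where the opposite strand ending holds the edge steps, went the other way: TBP_E59_ACTA had 2766.5 and TBP_E59_TAGT 9162 for CPD, a difference of -1.56 ± 0.23 (SE; exact permutation test, adjusted p = 0.00023). This pair was called in the same direction on the non-irradiated CPD array, at 33.5 and 46.5, with a difference of -0.45 (exact permutation test, adjusted p = 0.0133). The largest CPD difference toward the listed strand was MITF_sebox_59_ACTA at 8687 over the lone MITF_sebox_59_TAGT at 1558.5, and the largest 6-4PP difference toward the opposite strand was TBP_E59_GCTG at 3456.5 under TBP_E59_CAGC at 13237.

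Where both orientations held the same step types, 36 pairs, the median difference was 0.07 for CPD and -0.10 for 6-4PP. Of these 2 were called higher and 0 lower for CPD, beside 22.8% of all such pairs with equal step types. For 6-4PP 5 were called higher and 3 lower, beside 60.2%. By the ratio of medians, the 4 largest of the 6-4PP calls were the 4 pairs of p53_E_mut_60. There ACTA had 19794.5 and its reverse complement 10760.5, ACTG had 24294.5 and 11536, GCTA had 13619.5 and 8658.5, and GCTG had 21712.5 and 10860. The edge step of each listed ending followed A, and that of each opposite ending followed G. For ACTG against CAGT the difference in mean log2 intensity was 1.25 ± 0.09 (SE; exact permutation test, adjusted p = 4.42e-05), and the lowest spot of the first, 22915, was above the highest of the second, 12905. On the non-irradiated arrays 3 of the 84 strand pairs were called higher and 5 lower for CPD, beside 17.1% of all such pairs, and 3 higher and 1 lower for 6-4PP, beside 13.7%. A lone CT could not be compared between strands, because in each library it lay on 1 strand alone.

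The step itself was then exchanged, with flanks and edges kept. TC has the same base composition as CT. On the irradiated 6-4PP array CT was called lower than TC in 152 of 168 pairs and higher in 0, beside 58.2% and 20.8% of all pairs of endings with CT and TC in the middle. The median difference was -1.28. In 47 of these pairs the TC probe was at the scanner ceiling, so the difference there is a bound. Among lone probes, none of which was at the ceiling, the median was 5373.25 for CT and 15342.5 for TC, and 30 of 32 pairs were called lower, with a median difference of -1.51. The flank went with the size of this difference: for lone pairs it was -2.14 in ACTA, -1.94 in ACTG, -1.10 in GCTA and -0.68 in GCTG.

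In MITF_Ex_sebox_59 with A on both sides, the 6-4PP level was 7557 for CT and 32802.5 ± 4195 (SD, n = 10 spots) for TC. The highest CT spot, 12579, was below the lowest TC spot, 24496, and the difference in mean log2 intensity was -2.09 ± 0.14 (SE; exact permutation test, adjusted p = 4.42e-05). The largest called difference was between MITF_ebox_60_ACTG, at 7037, and MITF_ebox_60_ATCG, whose median was at the ceiling. The mean log2 intensity of CT was lower there by at least the measured difference of -2.93 ± 0.20 (SE), a lower bound in size, in a pair with these sequences:
MITF_ebox_60_ACTG: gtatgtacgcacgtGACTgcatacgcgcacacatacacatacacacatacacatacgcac
MITF_ebox_60_ATCG: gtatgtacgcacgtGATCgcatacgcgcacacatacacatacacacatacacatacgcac

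For CPD fewer pairs were called under the same exchange. CT was called lower in 16 of 168 pairs and higher in 1, beside 8.18% and 7.89% of all such pairs, and the median difference was -0.34. In MITF_Ex_sebox_59 the CPD level was 5271 for ACTA and 5038.5 for ATCA (exact permutation test, adjusted p = 0.702). The largest called difference was TBP_MUT_60_TAGT at 2146 against TBP_MUT_60_TGAT at 5941.5, and the only call the other way was p53_E60_TAGC at 7655 against p53_E60_TGAC at 5464. With adjusted intensities CT was called lower in 65 of 168 pairs and higher in 3, beside 30.4% and 18.5% of all such pairs. Before irradiation CT was called lower than TC in 6 pairs and higher in 1 for CPD, beside 2.23% and 1.79%, and lower in 7 and higher in 1 for 6-4PP, beside 1.64% and 1.49%.

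TT was brighter than CT for both antibodies. For CPD CT was called lower in 133 of 168 pairs and higher in 0, beside 66.5% and 0.149% of all pairs of this kind, with a median difference of -1.01. Lone CT probes had 2662.75 and lone TT probes 5980.75, and 26 of 32 pairs were called lower. For 6-4PP CT was called lower in 148 pairs and higher in 0, beside 49.6% and 14.6%, with a median of -1.07 that includes 12 pairs at the ceiling. Lone probes had 5373.25 and 9919.5, with 23 of 32 called lower. In MITF_Ex_sebox_59, ATTA had 7411.5 for CPD and 16394 for 6-4PP, and both differences from ACTA were called. The difference for CPD was -0.68 ± 0.13 (SE; exact permutation test, adjusted p = 0.000888) and for 6-4PP -1.07 ± 0.14 (SE; exact permutation test, adjusted p = 7.88e-05). The largest called differences were TBP_E60_ACTG at 1524 under TBP_E60_ATTG at 8613 for CPD, and MITF_ebox_60_ACTA at 9553 under MITF_ebox_60_ATTA at the ceiling for 6-4PP. On the non-irradiated CPD array CT was already called lower than TT in 38 of 168 pairs and higher in 0, beside 15.8% and 0.298% of all such pairs. For 6-4PP it was lower in 7 and higher in 0 before irradiation, beside 2.08% and 1.93%.

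CT was mostly above CC for CPD, and for 6-4PP the median difference had the opposite sign. For CPD CT was above CC in 137 of 168 pairs, with a median difference of 0.28, and was called higher in 22 and lower in 0, beside 26.2% and 0.0% of all pairs of this kind. With adjusted intensities 105 were called higher and 0 lower, beside 71.7% and 0.0%, so neither count was above its background share. Lone CT probes had 2662.75 and lone CC probes 2021.5, with 3 of 32 pairs called. For 6-4PP CT was called higher in 11 pairs and lower in 35, beside 34.5% and 19.5%, with a median of -0.16. Lone CT probes had 5373.25 and lone CC probes 6733, with 0 called higher and 9 lower. Before irradiation CT was called higher than CC in 7 pairs and lower in 1 for CPD, beside 5.21% and 0.298%, and higher in 4 and lower in 1 for 6-4PP, beside 2.53% and 0.298%.

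The same library shows the direction for each antibody. MITF_Ex_sebox_59_ACCA had a CPD level of 2297.5 ± 1212 (SD, n = 10 spots) against 5271 for ACTA, and CT was higher by 1.35 ± 0.30 (SE; exact permutation test, adjusted p = 0.000725). For 6-4PP ACCA had 9553.5 and ACTA 7557, which were not called (adjusted p = 0.0683, exact permutation test). The largest called CPD difference was TBP_MUT_E60_ACTA at 4650 over TBP_MUT_E60_ACCA at 1454.5. For 6-4PP they were MITF_sebox_59_ACTG at 48323.5 over MITF_sebox_59_ACCG at 30796.5 and MITF_Ex_ebox_59_ACTA at 5648 under MITF_Ex_ebox_59_ACCA at 11115.5.

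Among libraries, the median over the 8 CT probes on the irradiated CPD array was lowest in MITF_ebox_60, at 2490.5, and highest in p53_E_mut_60, at 5869.5. On the irradiated 6-4PP array it was lowest in MITF_Ex_ebox_59, at 5534.25, and highest in MITF_ebox_59, at 13077.25. Within MITF_ebox_59 the CT probes ran from 5161 to 39687, so the spread inside that library was wider than the spread between library medians.

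Libraries that differ by changed backbone bases, such as MITF_ebox_60 and NP_MITF_ebox_60 or TBP_59 and TBP_MUT_59, formed 11 pairs with 88 CT probes on either side, and the probes of a pair hold the same step types. This comparison was added after the data had been seen, with adjustment over its own 2816 pairs per array. For CPD 2 of the 88 were called, both lower in MITF_ebox_60 than in NP_MITF_ebox_60, beside 1.46% of all endings called lower and 0.071% called higher. The larger was ACTG, at 2271.5 against 4942.5 (exact permutation test, adjusted p = 0.0257). For 6-4PP 1 was called higher and 6 lower, beside 3.76% and 8.66%. Of the 6 lower, 2 were again in MITF_ebox_60 against NP_MITF_ebox_60.

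The other 4 were the 4 listed strand endings of p53_E60 against p53_E_mut_60. In p53_E60 and p53_E_mut_60 in turn, ACTA had 8746 and 19794.5, ACTG had 9934 and 24294.5, GCTA had 8224.5 and 13619.5, and GCTG had 7457.5 and 21712.5. For ACTG the exact permutation test gave an adjusted p of 0.00035. For these listed endings the base before the edge step is A in p53_E_mut_60 and G in p53_E60. The p53_E_mut_60 probes are the same ones as in the strand pairs described above, so this is not a separate observation. The single call in the other direction was MITF_ebox_59_ACTA, at 28000.5, over MITF_sebox_59_ACTA, at 22890.5, and it was lost with adjusted intensities. With those, 0 CT probes of this library pair were called higher and 1 lower for 6-4PP. For CPD, adjusted intensities gave 5 called lower in MITF_ebox_60 against NP_MITF_ebox_60. They also gave 1 lower in MITF_ebox_60 against MITF_sebox_60 and 1 lower in MITF_Ex_ebox_59 against MITF_Ex_sebox_59. With intensities that were not spatially adjusted, no CT probe of the other 8 library pairs was called on the irradiated arrays. On the non-irradiated CPD array 0 of the 88 were called higher and 1 lower, beside 0.462% and 1.95% of all endings. On the non-irradiated 6-4PP array 6 were called higher and 8 lower, beside 8.81% and 10.0% of all endings.

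These calls before irradiation fell mostly in 3 library pairs. In p53_E60 all 8 CT probes were dimmer than in p53_E_mut_60 on the non-irradiated 6-4PP array, with medians of 37 and 43.75, and 4 were called lower. Of these, ACTA (37.5 and 44) and ACTG (37 and 45) are among the 4 called after irradiation. In MITF_ebox_60 all 8 CT probes were brighter than in NP_MITF_ebox_60 there, with medians of 59 and 49.75, and 5 were called higher, the opposite sign to the calls of that pair after irradiation. For CAGT, called in both, the levels before irradiation were 62.5 and 47.5. The sixth probe called higher was MITF_Ex_ebox_60_ACTA over MITF_Ex_sebox_60_ACTA. Of the other 4 called lower, 3 were in p53_60 against p53_mut_60 and 1 was MITF_ebox_60_TAGT against MITF_sebox_60_TAGT.

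Names that print the same sequence give the reproducibility of these levels. Over the 40 CT probes with a second name, the median absolute log2 difference between names was 0.31 on the irradiated CPD array and 0.14 on the irradiated 6-4PP array. The largest were 0.83 and 0.55.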

How the data were processed

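Each array file held 62976 spots with probe name, sequence and intensities. Per the file headers, the deposited intensities were a raw signal of the fluorescent label, the same values without flagged spots, a local median and a spatially adjusted intensity. The labels and headers do not state the scanner, its settings or the adjustment method. The values without flags were used as deposited, with no further normalization, and the spatially adjusted intensity of the authors was an alternative. Dipyrimidine steps were counted on both strands outside the 10 shared 3′ bases.

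Pair differences over groups of probes are medians of log2 ratios of per-name spot medians, except where a mean log2 difference with its SE is named. Pairs were tested by exact permutation, from at least 3 spots per name, with Python 3.11.15 and numpy 2.4.6. The code was tested on simulated data. Replicate spots share 1 array, so p-values measure the spread on that array only. The members, contrasts and lists were chosen with earlier results of these data known. Named probes were the 3 highest and 3 lowest per irradiated array, the libraries with the highest and lowest median, and, by the ratio of medians, the largest called pair of each contrast in each direction. Probes shown with sequences, and the pairs described from them, were chosen after their values were seen, as were the splits by edge step.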

Additional observations from a re-analysis of the deposited data

How the results depend on the processing

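Calls depended most on the deposited spatial adjustment of the irradiated CPD array, where the median SD of a CT probe's spots was 0.28 on the log2 scale after adjustment. With adjusted intensities the percentage of CPD pairs called was 57.1% higher for A before CT, 56.0% higher and 0% lower for A after CT, 41.7% higher for the listed strand, 1.79% higher and 38.7% lower for CT against TC, and 62.5% higher for CT against CC. The library comparison gave 7.95% lower for CPD and 0% higher for 6-4PP, and A after CT 3.57% higher for 6-4PP. With flagged spots kept, the last was 2.38%.

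In the 59-base libraries A after CT was called lower in 3.12% for CPD and higher in 0% for 6-4PP, the listed strand lower in 28.1% and 40.6%, CT above TC in 0% for CPD and CT above CC in 12.5% for 6-4PP. In the 60-base libraries these were 0%, 1.92%, 0%, 11.5%, 0.962% and 2.88%. These libraries differ in edge steps.

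With equal step types, a split made after seeing the data, A before CT was called higher in 10.0% for CPD and 32.5% for 6-4PP. A after CT was called higher in 4.55% and lower in 2.27% for CPD, and 2.27% and 4.55% for 6-4PP. The listed strand was called higher in 5.56% and lower in 0% for CPD, and 13.9% and 8.33% for 6-4PP. With adjusted intensities as well, these were 35.0% for A before CT for 6-4PP, 34.1% and 0% (CPD) and 6.82% and 2.27% (6-4PP) for A after CT, and 13.9% and 0% (CPD) and 11.1% and 8.33% (6-4PP) for strand. Lone CT against TC was called higher in 0% and lower in 6.25% for CPD, and 3.12% and 37.5% after adjustment. Lone CT against CC was called higher in 0% for 6-4PP, and after adjustment 68.8% higher for CPD and 0% higher and 43.8% lower for 6-4PP. The cause of these shifts was not tested.

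With conditions taken from the titles, the 6-4PP difference was -7.26. The other 296 alternative values on the irradiated arrays stayed near the main value. Percentages stayed within 1.5 times the main one, and medians within the array's median log2 SD of a CT probe's spots. On the non-irradiated arrays 265 values stayed within these limits and 71 did not. That SD was 0.62 on the irradiated CPD array, larger than the CPD median differences for both flanks and for strand, so it is a wide limit there. The strand comparison over lone CT probes gave no value. No paired analysis was possible because each group holds 1 array. Intensities at the scanner ceiling limit the 6-4PP differences from TC and TT, and background probes exist at 60 bases only.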
